A study of Mus musculus with 8 samples.

Results

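The genes described here carry glucose through glycolysis, hand its products to lactate or pyruvate, or divert it into the pentose phosphate pathway, together with the hypoxia factor Hif1a, 3 genes of its control and response, and the malic enzymes Me1 and Me2. They were chosen by symbol, 37 rows of the 41730 in the deposited table of RNA sequencing counts, and no measured value entered that choice. Of the 37, 36 passed the filter on low counts and were tested. Me1 did not pass.

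All 8 libraries came from mouse CD8+ T cells of the OT-I genotype, whose transgenic receptor recognises the ovalbumin peptide SIINFEKL. In both groups the T cells were cultured with SIINFEKL-pulsed bone marrow-derived dendritic cells (BMDCs) of the LXR-/- genotype and then purified by flow cytometric sorting. The controls (n = 4) received the solvent DMSO and the treated cultures (n = 4) received 2 µM RGX-104, a synthetic agonist of the liver X receptors (LXR), which are nuclear receptors that switch on genes of cholesterol export and lipid synthesis. Only the dendritic cells are labelled LXR-/-, so the comparison addresses what the agonist changed in T cells while the presenting cells lacked its receptors. The labels name no culture time and no animal age, and do not say if libraries of 1 group stem from different cultures or mice. The p-values thus rest on the spread among these libraries alone, and that spread may be technical.

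Glucose enters T cells through facilitative transporters, is trapped as glucose 6-phosphate by hexokinases, and is split and oxidised to pyruvate. Activated CD8+ T cells are known for turning much of that pyruvate into lactate, which leaves through monocarboxylate transporters, and for drawing glucose 6-phosphate into the pentose phosphate pathway for NADPH and ribose. The transcription factor HIF-1, whose alpha subunit Hif1a encodes, and the factor Myc both act on many of these genes, HIF-1 through the core letters ACGTG or GCGTG and Myc through the E-box CACGTG.

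Start-site sequences of 5 members are shown as examples: the lactate dehydrogenases Ldha and Ldhb, the hexokinases Hk1 and Hk2, and the transcription factor gene Hif1a. Each line gives the 250 bases before the gene's first listed RefSeq start (GRCm38.p6), 5′ to 3′ on the gene's own strand, with capitals marking the HIF-1 core or the E-box named above on either strand. Read on the opposite strand, ACGTG appears as CACGT, and the other core as CACGC.
Ldha chr7:46845554-46845803 (plus strand): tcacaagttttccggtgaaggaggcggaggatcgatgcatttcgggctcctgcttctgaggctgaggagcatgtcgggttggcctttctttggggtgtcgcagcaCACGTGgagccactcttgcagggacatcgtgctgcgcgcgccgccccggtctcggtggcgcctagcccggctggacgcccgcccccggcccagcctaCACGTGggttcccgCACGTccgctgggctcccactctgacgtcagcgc
Ldhb chr6:142507958-142508207 (minus strand): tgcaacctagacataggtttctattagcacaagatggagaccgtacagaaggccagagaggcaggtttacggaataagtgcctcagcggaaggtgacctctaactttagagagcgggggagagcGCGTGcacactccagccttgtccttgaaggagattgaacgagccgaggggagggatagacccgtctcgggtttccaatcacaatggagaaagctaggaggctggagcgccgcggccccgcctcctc
Hk1 chr10:62379909-62380158 (minus strand): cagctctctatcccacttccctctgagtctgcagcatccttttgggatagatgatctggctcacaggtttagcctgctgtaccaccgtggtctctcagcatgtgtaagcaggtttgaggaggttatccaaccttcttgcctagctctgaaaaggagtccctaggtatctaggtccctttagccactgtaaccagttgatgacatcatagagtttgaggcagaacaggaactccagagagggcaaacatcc
Hk2 chr6:82774455-82774704 (minus strand): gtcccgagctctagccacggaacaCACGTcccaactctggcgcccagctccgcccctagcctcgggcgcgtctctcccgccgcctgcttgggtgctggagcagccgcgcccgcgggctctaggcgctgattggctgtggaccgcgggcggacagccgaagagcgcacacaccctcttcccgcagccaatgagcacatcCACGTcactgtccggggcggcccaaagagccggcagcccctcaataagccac
Hif1a chr12:73907617-73907866 (plus strand): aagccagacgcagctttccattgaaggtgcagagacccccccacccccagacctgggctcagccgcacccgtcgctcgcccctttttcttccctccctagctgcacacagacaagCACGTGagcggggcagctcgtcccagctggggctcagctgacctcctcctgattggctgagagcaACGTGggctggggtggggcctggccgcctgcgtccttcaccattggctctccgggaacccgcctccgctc

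The Ldha window held CACGTG at 2 places and a further ACGTG, the Hif1a window 1 CACGTG and a further ACGTG, the Hk2 window ACGTG at 2 places and the Ldhb window 1 GCGTG. None of these letters was found in the Hk1 window shown, while the window of the other listed Hk1 start (chr10:62340422-62340671) held GCGTG 3 times. A CACGTG holds ACGTG on both strands, so the searches overlap. RefSeq windows were matched for 35 of the 37 members, 50 windows in all. Some windows of the same gene overlap (Eno1, Aldoa and Pfkm), so a site can count more than once. For 45 of the 50, the bases after the start were found in an annotated transcript of the gene. ACGTG or GCGTG was present in 40 of the 50 (80%), against 38.6% of all 32851 windows and 44% of the 21263 windows of protein-coding genes. CACGTG was present in 6 of the 50 (12%), against 6.02% of all windows. An exact pair of AGGTCA half-sites spaced by 4 bases, the LXR element in its strictest spelling, was in 0 of the 50 and in 5 of all 32851. These matches describe letters in a window and are not evidence of binding.

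Levels below are CPM, a gene's counts scaled to a common library size, and a gene is called higher or lower when its adjusted p (edgeR quasi-likelihood F-test, Benjamini-Hochberg over the 13290 genes tested) was under 0.05. Log2 fold changes are RGX-104 over control, with their standard error (SE). RGX-104 left the messenger RNA of most of the pathway close to its control level: 3 of the 36 tested members rose (Rpia, Aldoc and Slc16a3) and 4 fell (Hk1, Ldhb, Hif1a and Egln1), each by less than 22%. The share called was 19.4% of the members, against 8.95% of all genes tested, of which 4.82% were called higher and 4.13% lower. Among genes with a mean log2 CPM of at least 3, a level chosen after the data were seen, 20% of 35 members and 11.2% of all genes were called. Tested against a fold of 1.1 instead of no change, none of the 7 was called, and with 1 surrogate variable Hk1, Hif1a and Egln1 were not. In 10 of 36 members the groups did not overlap (5 higher and 5 lower), against 14.5% of all genes. The median log2 fold change was −0.03 over the members and 0.00072 over all genes, and the median size without sign was 0.04 and 0.066. In 30 of 36 members the range within 1 of the groups exceeded the difference between their means. For reference, the LXR targets Abca1, the cholesterol exporter, and Mylip, the ligase that degrades the LDL receptor, rose by 6.19 ± 0.07 and 1.54 ± 0.07 (log2 fold change ± SE). In such bulk samples, fewer cells of a type and less RNA per cell cannot be told apart.

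**Figure D1:**
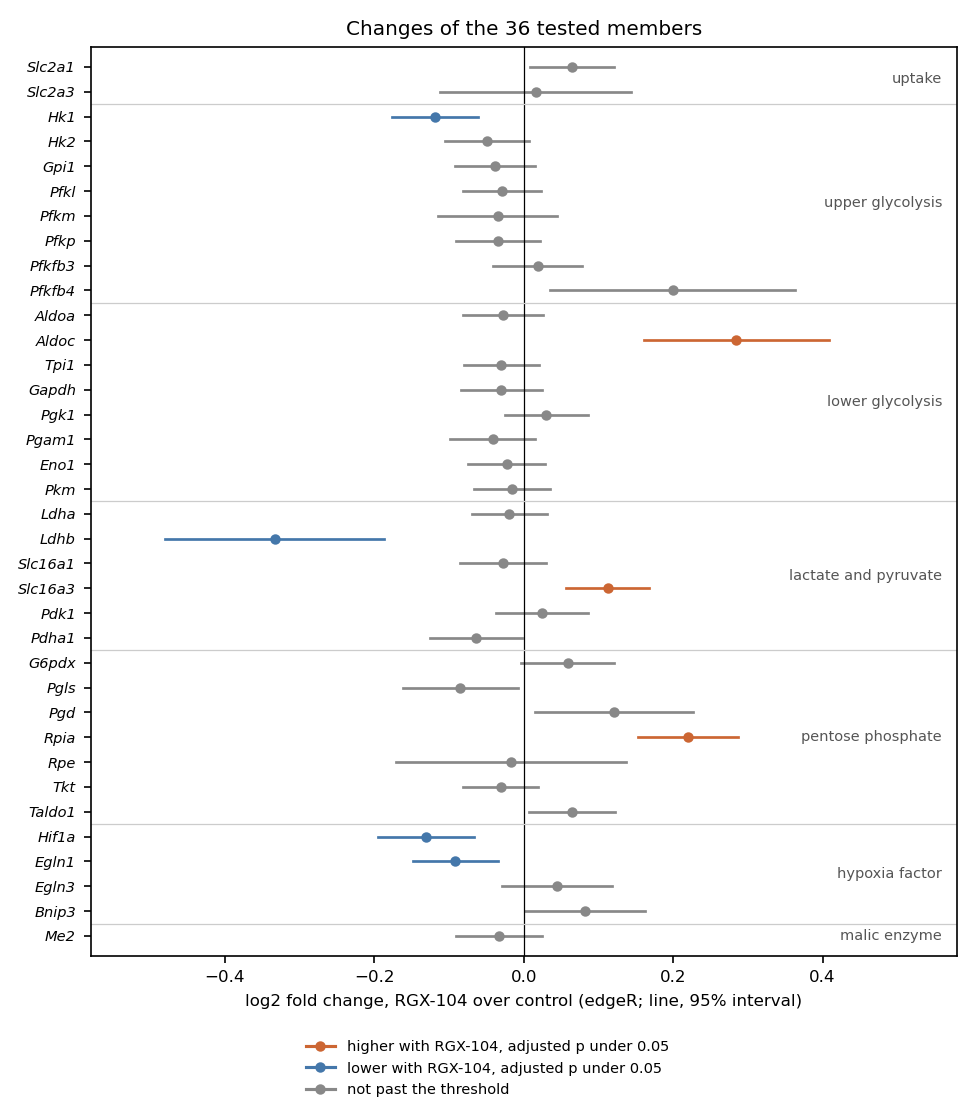
Log2 fold change of RGX-104 over control for each of the 36 tested members, in pathway order, with its 95% interval from edgeR. The 3 members called higher are orange, the 4 called lower are blue, and most of the grey intervals cross 0.

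Library totals were 33942140 to 37714355 counts in the controls and 30642316 to 35244624 with RGX-104, and the members together took 2.33% ± 0.0113 and 2.32% ± 0.0468 of them (SD, n = 4). Libraries 2 and 3 of the RGX-104 group both lay above libraries 1 and 4 in 23 of the 36 tested members (63.9%), against 22.2% of all genes tested. Control library 1 was the lowest control in 13 of 36 (36.1%, against 27.1%). What set these libraries apart was not tested. Without RGX-104 libraries 2 and 3, 1 member was called higher and 2 lower (Rpia, Hk1 and Ldhb kept their calls). Without libraries 1 and 4, Rpia, Aldoc, Slc16a3 and Ldhb kept theirs. The median log2 fold change of the members was −0.04 in the first case and 0.0069 in the second. The sort was checked on markers. The summed level of 10 CD8 T cell markers was 3992 to 4167 CPM in controls and 3939 to 4021 CPM with RGX-104. Of 9 tested, 1 was called higher (Lck) and 4 lower (Cd3e, Cd8a, Cd8b1 and Cd247). Cd2 was not tested and had at most 6 counts in any library. The 14 dendritic cell and macrophage markers summed to 140 to 154 CPM and 159 to 175 CPM, with 3 of 7 tested called higher (Cd74, Ccl22 and Ctss) and 0 lower. Of that list, the myeloid genes Lyz2, Csf1r, Spi1, Tyrobp and Fcer1g had at most 13 counts in any library and together summed to 0.458 to 0.649 and 0.495 to 0.744 CPM. Other genes of the list were well detected: Cst3, Batf3, Ctss and Cd74 had control means of 48.1, 37.9, 27.1 and 26.5 CPM. The part of these marker shifts in the results below was not tested.

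**Figure D2:**
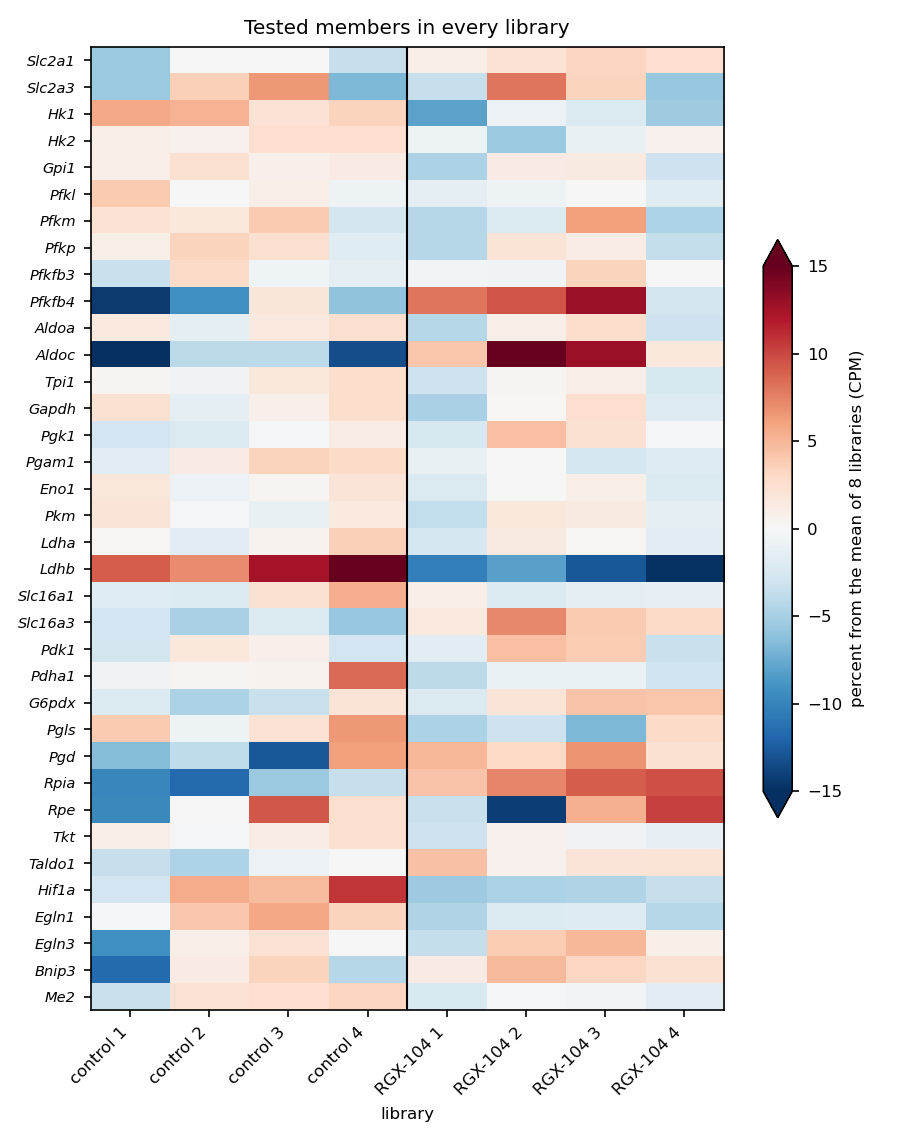
Each tested member (row) in each library (column) as the percent deviation of its CPM from its mean over the 8 libraries, with colours ending at 15%. Columns RGX-104 2 and 3 are warmer than RGX-104 1 and 4 in most rows, and Rpia, Aldoc and Ldhb separate the groups most plainly.

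Setting genes side by side needs a level per length, here CPM per kilobase of the longest annotated transcript. In control cells Ldha stood highest at 2484 ± 54.5 CPM per kb (SD, n = 4). Aldoa at 1615 ± 26.3 and Pkm at 1586 ± 22.8 came next and did not differ beyond their spread. Tpi1 (970.2), Gapdh (496), Eno1 (381), Gpi1 (346) and Pgk1 (331) followed, so the trunk of glycolysis filled the top of the order. Tkt was the most abundant pentose phosphate gene at 304 CPM per kb. The lowest were Ldhb (6.88), Pgd (5.83), Rpe (4.30), Pfkfb4 (1.97) and Me1 (0.0363 CPM per kb). The cells may use shorter transcripts than the longest annotated, and with the median length of each gene's transcripts the order began with Ldha (6093), Pkm (5191), Gapdh (2889) and Aldoa (2826 CPM per kb).

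**Figure D3:**
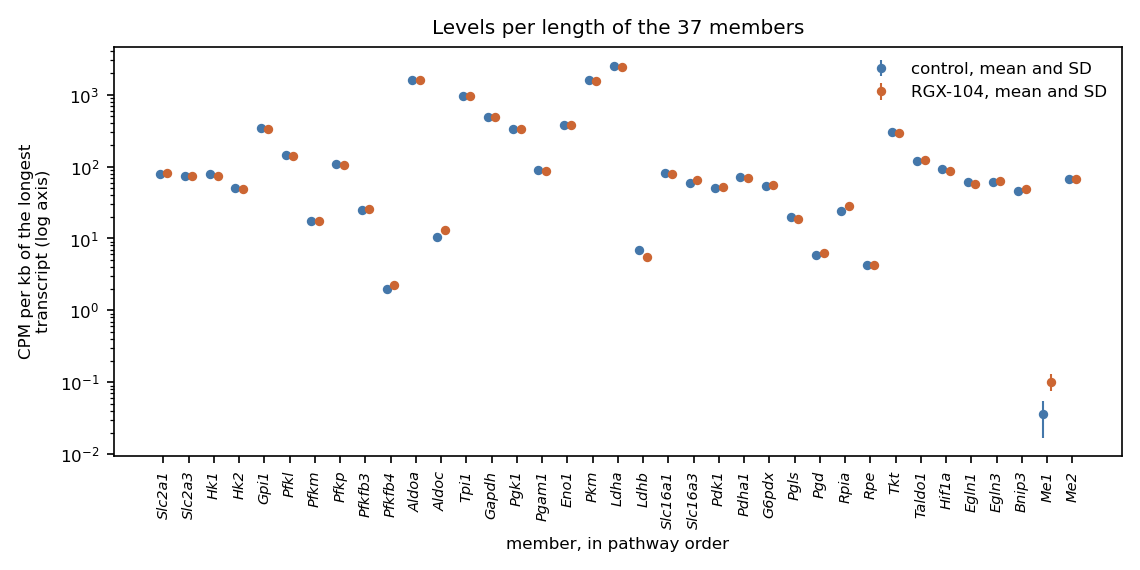
Mean level per length of the 37 members in CPM per kb, on a log axis, in pathway order, for control (blue) and RGX-104 (orange), with SD bars over 4 libraries each. Levels span from Me1 near 0.04 to Ldha at 2484, and the 2 groups lie close together for every tested member.

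The glucose transporters were not called. Slc2a1, the main transporter of activated T cells, was at 249, 263, 263 and 254 CPM in the controls and at 266, 269, 272 and 270.0 CPM with RGX-104. All treated libraries lay above all controls, but the log2 fold change of 0.06 ± 0.03 missed the threshold (edgeR adjusted p = 0.152). Slc2a3, the high-affinity transporter, overlapped widely at 459 ± 30.5 and 464 ± 29.0 CPM (SD, n = 4; edgeR adjusted p = 0.907). Per length, Slc2a1 made up 51.9% ± 1.06 of both transporters in controls and 52.7% ± 1.5 with RGX-104. With the median transcript length, Slc2a3 exceeded Slc2a1. DESeq2 and limma-voom with sample weights also called 0 of both, and Slc2a1 had an unadjusted p of 0.0256.

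Of the 8 upper glycolysis genes tested, 1 fell and none rose. Hk1, the housekeeping hexokinase, was at 347, 345, 335 and 339 CPM in the controls and at 302, 325, 321 and 310.4 CPM with RGX-104. Every treated library lay below every control, and Hk1 fell by 7.88% (log2 fold change −0.12 ± 0.03, edgeR adjusted p = 0.00666). Its few antisense counts (Hk1os, mean 37.4 counts) cannot be told from its own if strand was ignored in counting. The inducible hexokinase Hk2 was at 279, 278, 283 and 283 CPM in controls and at 274, 261, 273 and 278 CPM with RGX-104. Its groups overlapped and it was not called (−0.05 ± 0.03, edgeR adjusted p = 0.301). Hk1 made up 61.0% ± 0.603 of both hexokinases per length in controls and 59.9% ± 1.34 with RGX-104, with overlap.

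Gpi1, the isomerase that turns glucose 6-phosphate into fructose 6-phosphate, had the highest level per length of these 8. Its controls were at 1104, 1118, 1100 and 1106 CPM and its RGX-104 libraries at 1041, 1105, 1107 and 1059 CPM. Treated libraries 1 and 4 were below all controls and the other two were within their range (log2 fold change −0.04 ± 0.03, edgeR adjusted p = 0.406). The phosphofructokinase subunits Pfkl, Pfkm and Pfkp, which form the committed step, had log2 fold changes of −0.03 each, with edgeR adjusted p of 0.542, 0.647 and 0.496. Their mix stayed similar: Pfkl was 53.5%, Pfkp 39.9% and Pfkm 6.54% of the 3 per length in controls, and 53.7%, 39.8% and 6.52% with RGX-104. With the median transcript length, Pfkp exceeded Pfkl. Counts of Pfkp and Pfkm may include reads of the overlapping genes Pitrm1 (748 shared exon bases) and Senp1 (18). Pfkfb3 and Pfkfb4 make the activator fructose 2,6-bisphosphate. Pfkfb3 was at 121 ± 3.11 and 122 ± 2.24 CPM (edgeR adjusted p = 0.764). Pfkfb4, at a low 6.86 ± 0.5 and 7.88 ± 0.5 CPM, had a log2 fold change of 0.20 ± 0.08 that missed the threshold (edgeR adjusted p = 0.127). Its 95% interval of 2.48 to 28.7% was the widest upward among uncalled members.

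From aldolase to pyruvate kinase, 1 of 8 genes rose and none fell. Aldoc, the brain-type aldolase, was at 27.0, 31.5, 31.6 and 28.5 CPM in the controls and at 34.2, 39.6, 37.1 and 33.4 CPM with RGX-104. The groups did not overlap, and the rise was 21.8% (95% interval 11.8 to 32.7%, log2 fold change 0.28 ± 0.06, edgeR adjusted p = 0.00434). Aldoa, the muscle-type aldolase that dominates in these cells, was at 2514, 2442, 2513 and 2536 CPM in controls and at 2370, 2500, 2542 and 2400 CPM with RGX-104. It overlapped and was not called (−0.03 ± 0.03, edgeR adjusted p = 0.566). Aldoc therefore stayed a small part of both aldolases per length, 0.655% ± 0.0570 in controls and 0.810% ± 0.0445 with RGX-104, without overlap.

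Gapdh, the dehydrogenase that yields NADH, was at 1653, 1592, 1627 and 1658 CPM in the controls and at 1537, 1618, 1655 and 1584 CPM with RGX-104. Its groups overlapped (−0.03 ± 0.03, edgeR adjusted p = 0.536). GENCODE lists 190 pseudogene copies with at least 90% identity to Gapdh over an aligned stretch of at least 200 bases, not over its whole length. Of these, 8 are in the table with 0.634% of its counts, so its level is uncertain. Pkm, pyruvate kinase, was at 3913, 3828, 3795 and 3894 CPM in controls and at 3696, 3900, 3889 and 3778 CPM with RGX-104. It too overlapped (−0.02 ± 0.02, edgeR adjusted p = 0.765), and a table of genes cannot tell its splice forms apart. Tpi1 is the isomerase before Gapdh, and Pgk1, Pgam1 and Eno1 are the kinase, mutase and enolase between Gapdh and Pkm. In that order their log2 fold changes were −0.03, 0.03, −0.04 and −0.02, with edgeR adjusted p from 0.396 (Pgam1) to 0.631 (Eno1). By the same rule, copies are also annotated for Eno1 (7), Ldha (13), Pkm (8), Aldoa (5), Pgk1 (4), Bnip3 (4) and Pgam1 (3). Tpi1 and Me1 have 2 each, and Gpi1, Taldo1, Pdha1 and Ldhb 1 each. Ldhb is the only called member among them, and its copy (98.0% identity over 1002 bases) is not in the table. Adding the copies' counts to their genes kept the same 7 calls. None of the 7 called members had copy counts to add, so that fit could hardly change their calls.

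At the lactate and pyruvate step, 1 of 6 genes rose (Slc16a3) and 1 fell (Ldhb). Ldhb, the heart-type subunit that favours lactate use, was at 8.78, 8.61, 9.05 and 9.43 CPM in the controls and at 7.22, 7.38, 7.02 and 6.85 CPM with RGX-104. No treated library reached a control, and Ldhb fell by 20.6% (95% interval −28.3 to −12.1%, log2 fold change −0.33 ± 0.07, edgeR adjusted p = 0.0027). Ldha, the muscle-type subunit that favours lactate formation, was at 4491, 4401, 4501 and 4641 CPM in controls and at 4366, 4537, 4489 and 4403 CPM with RGX-104. Its groups overlapped (−0.02 ± 0.02, edgeR adjusted p = 0.691), with a 95% interval of the change from −4.68 to 2.15%. Per length, Ldhb was 0.276% ± 0.00549 of both subunits in controls and 0.222% ± 0.00665 with RGX-104, without overlap.

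Slc16a3, which encodes the lactate exporter MCT4, was at 262, 256, 263 and 254 CPM in the controls and at 273, 289, 279.7 and 277 CPM with RGX-104. The groups did not overlap, and the rise was 8.09% (log2 fold change 0.11 ± 0.03, edgeR adjusted p = 0.00806). Without RGX-104 library 2, the highest, the call was lost (edgeR adjusted p = 0.057, the highest with any 1 library left out). Slc16a1, which encodes the transporter MCT1, was at 361 ± 12.8 and 354 ± 4.67 CPM and was not called (−0.03 ± 0.03, edgeR adjusted p = 0.61). Slc16a3 made up 42.3% ± 1.07 of both transporters per length in controls and 44.7% ± 0.879 with RGX-104, without overlap. With the median transcript length, Slc16a3 exceeded Slc16a1. Pdk1, the kinase that shuts pyruvate dehydrogenase, was not called (0.02 ± 0.03, edgeR adjusted p = 0.689). Pdha1, a subunit of that dehydrogenase, was lower in every treated library than in any control yet missed the threshold (−0.06 ± 0.03, edgeR adjusted p = 0.203). Counts of Pdha1 may include reads of the overlapping Map3k15 (603 shared exon bases, mean 108.6 counts).

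**Figure D4:**
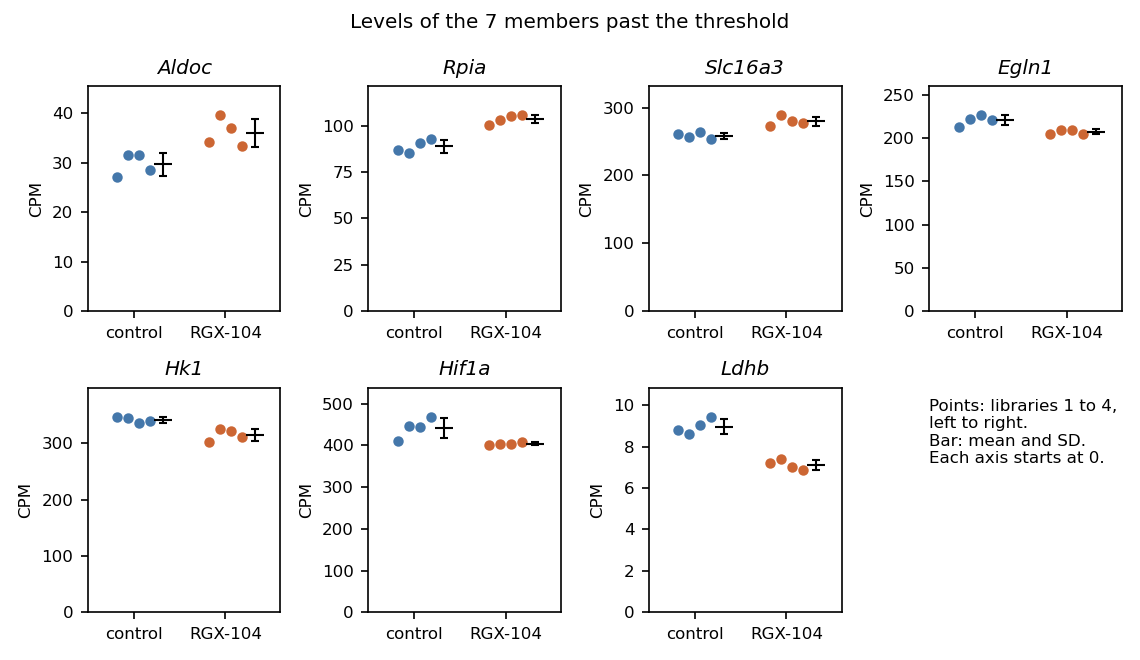
CPM in every library for the 7 members called, with controls 1 to 4 in blue and RGX-104 libraries 1 to 4 in orange, a bar for the mean and SD, and axes from 0. The groups do not overlap in any panel, and the distance between them is small against the level in Hk1, Hif1a, Egln1 and Slc16a3.

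In the pentose phosphate pathway 1 of 7 genes rose and none fell. Rpia, the isomerase that yields ribose 5-phosphate for nucleotides, was at 86.8, 85.1, 90.9 and 92.9 CPM in the controls and at 100.3, 103, 105 and 106 CPM with RGX-104. The groups were clearly apart, and its rise of 16.4% (95% interval 11.2 to 22.0%, log2 fold change 0.22 ± 0.03) had the smallest adjusted p of the members (edgeR adjusted p = 3.38e-05). G6pdx, the first and rate-limiting enzyme, was at 140.1, 136, 138 and 146 CPM in controls and at 140.0, 146, 149 and 149 CPM with RGX-104. It overlapped and was not called (0.06 ± 0.03, edgeR adjusted p = 0.259), and its counts may include reads of the overlapping Ikbkg. Pgls and Pgd complete the oxidative branch with log2 fold changes of −0.08 ± 0.04 (edgeR adjusted p = 0.173) and 0.12 ± 0.05 (edgeR adjusted p = 0.158). Pgd was called higher with limma-voom and sample weights, and also without control library 4.

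Tkt, the transketolase of the non-oxidative branch, had the highest level per length of the pathway. Its controls were at 978, 967, 979 and 992 CPM and its RGX-104 libraries at 939, 974, 963 and 956 CPM. Only treated library 2 lay within the control range (−0.03 ± 0.02, edgeR adjusted p = 0.492). Taldo1, the transaldolase of the same branch, was at 161 ± 3.59 and 168 ± 2.60 CPM without overlap but was not called (0.06 ± 0.03, edgeR adjusted p = 0.165). Rpe, the epimerase beside Rpia, was at 11.7 ± 0.920 and 11.6 ± 1.24 CPM (edgeR adjusted p = 0.923). Counts of Rpe may include reads of the overlapping Kansl1l (558 shared exon bases, mean 55.9 counts). Hk2, Rpe, Pgd and Eno1 each have a numbered duplicate row in the table, with 9, 5, 11 and 34 counts over all libraries. How reads shared by such rows were counted is not given, so their levels are uncertain.

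Among the hypoxia factor genes, 2 of 4 fell and none rose. Of all genes tested, 8.95% were called in either direction. Hif1a was at 411, 447, 443 and 469 CPM in the controls and at 400.4, 403, 404 and 408 CPM with RGX-104. The treated libraries lay close together below the lowest control, library 1, and Hif1a fell by 8.7% (log2 fold change −0.13 ± 0.03, edgeR adjusted p = 0.00718). Antisense Gm15283 overlaps Hif1a with a mean of 77.2 counts. The Hif1a call was lost with 1 surrogate variable and against a fold of 1.1. It was also lost without RGX-104 libraries 2 and 3, and without libraries 1 and 4. Egln1, the prolyl hydroxylase that marks HIF-1 alpha for destruction, was at 213, 223, 226 and 221 CPM in controls and at 205, 209.8, 209.9 and 205 CPM with RGX-104. Its groups were separate but near, and Egln1 fell by 6.17% (−0.09 ± 0.03, edgeR adjusted p = 0.0354). That call was lost in 11 of 20 alternatives, among them leaving out any 1 RGX-104 library or control 2 or 3, with adjusted p up to 0.134 when 1 library was left out. Egln3 and Bnip3, a hydroxylase and a mitophagy receptor that HIF-1 induces, were not called, with log2 fold changes of 0.04 ± 0.04 (edgeR adjusted p = 0.498) and 0.08 ± 0.04 (edgeR adjusted p = 0.211).

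Me1, the cytosolic malic enzyme, which makes NADPH, was near the floor of detection. Its controls were at 0.201, 0.059, 0.138 and 0.0809 CPM and its RGX-104 libraries at 0.356, 0.340, 0.433 and 0.220 CPM. These came from 2 to 14 counts a library, under the filter, and all treated libraries were above all controls. It passes a filter mainly through the group where it is high, so no test is given for it. Me2, a mitochondrial malic enzyme, was at 219, 231, 232 and 234 CPM in controls and at 221, 226, 225 and 222 CPM with RGX-104. The groups overlapped through control 1 (−0.03 ± 0.03, edgeR adjusted p = 0.522).

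Most uncalled members were bounded closely. Of the 29, the 95% interval of the change lay within 15% of no change for 27 and within 10% for 23. Pfkfb4 and Pgd (1.03 to 17.0% higher) were the exceptions at 15%. Spread between libraries of 1 group was small: the coefficient of variation of the tested members in controls ran from 0.690% (Gpi1) to 8.16% (Pgd). With RGX-104 it ran from 0.832% (Hif1a) to 10.7% (Rpe).

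As sums over a role, CPM changed little. The 8 upper glycolysis genes summed to 3385 ± 30 CPM in controls and 3289 ± 75.4 CPM with RGX-104, and the 8 lower ones to 11117 ± 138 and 10964 ± 285 CPM (SD, n = 4). Lactate and pyruvate genes summed to 5604 ± 113 and 5552 ± 93.2 CPM, and pentose phosphate genes to 1455 ± 23.5 and 1461 ± 17.7 CPM. The hypoxia factor genes summed to 905 ± 39.5 and 863 ± 11.2 CPM. Groups overlapped in each of these sums.

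Further lists of the same pathways, 119 genes, were described beside the members. Of 108 tested, 8 were called higher and 9 lower (15.7%, against the 8.95% of all genes). Among 26 other glycolysis and sugar genes tested, 5 rose and none fell. Slc2a6, a glucose transporter family member of intracellular membranes, went from 14.3 ± 0.413 to 19.5 ± 0.234 CPM (log2 fold change 0.45 ± 0.05). Emb, embigin, a partner protein of monocarboxylate transporters, rose by 0.14 ± 0.03 on the log2 scale from 238 to 262 CPM. The sperm and neuronal isoforms Gapdhs and Eno2 rose from low levels, by 0.40 ± 0.12 and 0.34 ± 0.10 on the log2 scale (4.30 to 5.66 CPM and 5.02 to 6.36 CPM). The edgeR adjusted p of these 4 named genes ran from 3.39e-07 (Slc2a6) to 0.0346 (Gapdhs).

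Of 13 tested genes listed under pyruvate dehydrogenase and pyruvate entry, Pck2 alone was called, and thus none of the pyruvate carrier or dehydrogenase genes. Pck2, the mitochondrial enzyme that makes phosphoenolpyruvate from oxaloacetate, went from 68.0 ± 0.551 to 56.3 ± 2.42 CPM (log2 fold change −0.27 ± 0.03, edgeR adjusted p = 3.92e-06). Of 16 further pentose phosphate, ribose and NADPH genes, edgeR called 0, as did DESeq2 and limma-voom with sample weights. Without adjustment, p was under 0.05 for 4 of them in edgeR.

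Hypoxia response genes moved in both directions, 3 higher and 3 lower of 29 tested, against 4.82% and 4.13% of all genes. Those higher were Ier3, an early response gene, by 0.31 ± 0.06, Rora, a nuclear receptor, by 0.34 ± 0.08, and Siah2, a ubiquitin ligase that targets prolyl hydroxylases, by 0.15 ± 0.04 on the log2 scale. Lower were Stc2, a secreted glycoprotein, with a log2 fold change of −0.74 ± 0.16, Plin2, a lipid droplet coat protein, with −0.24 ± 0.06, and Mxi1, an antagonist of Myc, with −0.22 ± 0.04. With 1 library left out, 2 to 4 genes of this list were higher and 3 lower. Against a fold of 1.1, 0 were higher and 1 lower.

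Among regulators of glucose metabolism genes, 5 of 24 tested fell and none rose. Of all genes tested, 4.13% were called lower and 4.82% higher. Myc, the growth factor-induced activator of glycolysis genes, was at 481, 499, 524 and 545 CPM in the controls and at 433, 417, 423 and 464 CPM with RGX-104. Its groups did not overlap (log2 fold change −0.24 ± 0.04, edgeR adjusted p = 0.000734). The other four were Arrdc4, an arrestin-related brake on glucose uptake, with a log2 fold change of −0.79 ± 0.22 from 1.06 CPM, Tbc1d4, a regulator of transporter trafficking, with −0.40 ± 0.07, Akt2, a kinase of insulin signalling, with −0.12 ± 0.03, and Mlxip, the glucose-sensing factor MondoA, with −0.11 ± 0.03. Txnip, a MondoA target related to Arrdc4, had a log2 fold change of −0.41 ± 0.11 and was not called (edgeR adjusted p = 0.0712). The count of regulators called lower depended on the fit. It was 2 with 1 surrogate variable, 3 at an edgeR adjusted p under 0.01 and 1 against a fold of 1.1. With 1 library left out it ran from 3 to 5.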

How the data were processed

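RNA of 8 sorted T cell samples was sequenced, 4 per group. The authors deposited raw counts per gene in 1 table. The build GRCm38 and the tools STAR 2.7.5, cutadapt 2.10, DESeq2 1.4 and R 4.1.0 are those of the submitters' processing notes. How reads were counted, on which annotation and with what strand setting, is not given in the sources used here. Control columns matched numbered samples. RGX-104 columns matched only their group and are numbered by column.

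Genes were kept by filterByExpr (minimum count 10, total 15) and fitted over the whole table with treatment as the only term in edgeR 4.0.16 (R 4.3.3, robust, TMM). SE came from the F statistic and intervals (95%) from the t quantile. Between libraries of a group, the chi-square of the counts per degree of freedom ran from 1.36 (RGX-104 2 and 3) to 6.80 (control 2 and 4). Sampling noise alone gives about 1. Each library was counted as 1 replicate, but these values do not show that the libraries are independent. Scripts were tested on simulated data. Transcript lengths, overlaps and copies came from GENCODE M21, and promoters from the RefSeq table of GRCm38.p6.

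The members, lists and tests were chosen with earlier results of these data known. Every member is named. Values in every library are given for called members, for Slc2a1, Hk2, Ldha, Pkm, Hif1a, G6pdx and Gapdh, and for the member of each role with the highest level per length. From each other list, up to 6 called genes are named (1 that the rule names is not reported here), and Abca1 and Mylip serve as reference. Txnip and the single markers were named after their values were seen. Alternatives were DESeq2 1.42.0, voom with sample weights of limma 3.58.1, 1 surrogate variable (sva 3.50.0), other scalings, filters, thresholds and left-out libraries.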

Additional observations from a re-analysis of the deposited data

Results flagged for a closer look

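In 3 of 120 groups of 4 libraries, 1 library lay far from the other three, with a gap above 0.829 of the group's whole range (Dixon's test at 95%). The groups were those of the 36 tested members and the called genes of the other lists and of the LXR target list, and chance alone would give about 6. Pfkfb3 was at 125.6 CPM in RGX-104 library 3, against 120.9 to 121.6 CPM in the others. Pdha1 was at 216 CPM in control 4, against 198 to 200.3 CPM. Me2 was at 219 CPM in control 1, against 231 to 234 CPM. None of the 3 genes was called.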

How the results depend on the processing

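Rpia, Aldoc and Ldhb kept their calls in all 20 alternatives chosen with the design except the test against a fold of 1.1. Under that test 0 members were called higher and 0 lower, with 166 and 115 of all genes and 2 and 3 of the other lists. With 1 surrogate variable Hk1, Hif1a and Egln1 lost their calls, leaving 1 member lower, and 380 genes were called higher and 294 lower. DESeq2, RLE scaling and a minimum mean log2 CPM of 1 called the same 7 members, while upper quartile scaling and library size alone lost Egln1. At an adjusted p under 0.01, 344 genes were higher and 280 lower, with 5 of the other lists higher. Leaving out 1 library in turn, 2 to 4 members were called higher and 3 to 4 lower. Of all genes 462 to 719 were higher and 377 to 621 lower, and 5 to 9 genes of the other lists were higher. Me1 was counted among the members higher without control library 1, control library 3 or RGX-104 library 4. It passed the filter there mainly through the group where it is high, so those calls are not results.

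Leaving out RGX-104 libraries 2 and 3 together, chosen after seeing the data, gave 1 member higher and 2 lower, 369 and 327 genes, and 4 of the other lists higher and 8 lower. Leaving out libraries 1 and 4 gave 4 members higher and 1 lower, and 425 and 277 genes. Of the other lists it gave 7 higher and 5 lower. Me1 is 1 of those 4 members only because it then passed the filter, mainly through the group where it is high. Its call is therefore not a result. Fewer samples entered these fits.

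The labels do not pair the columns by number, and the data leave this unsettled: deviations of same-numbered libraries correlated at 0.177, 0.121, 0.0615 and 0.225, so not every correlation passed 0.1, while every control correlated best with its own number, a hint from the data and not the design. A replicate block by column number called the same 7 members (19.4%), and 1109 genes higher and 906 lower, 15.2% of all tested. It called 15 of the other lists higher, and 1 higher and 1 lower of the other pentose phosphate, ribose and NADPH genes.

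Directions near 0 reversed for members that were not called. Slc2a3 had a log2 fold change of −0.0017 with voom and sample weights and from −0.0201 to 0.0503 with 1 library left out. Rpe ranged from −0.0687 to 0.0504 with 1 library left out. Ldha was at 0.00453 with 1 surrogate variable. The cause was not tested.

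Shares per length depend on the transcript chosen. With the median transcript length, the mean shares over 8 libraries were 32% for Slc2a1, 75.1% for Hk1, 42.9% for Pfkl, 0.984% for Pfkm, 56.2% for Pfkp, 6.72% for Pfkfb4, 1.55% for Aldoc, 0.161% for Ldhb and 77.4% for Slc16a3. The larger share thus passed from Slc2a1 to Slc2a3, from Pfkl to Pfkp and from Slc16a1 to Slc16a3. Depth limits Me1 most, at 14 counts or fewer.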
